A study of Mus musculus with 50 samples.

Results

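Cell cycle and DNA replication genes were examined in the livers of young male mice from a backcross. The genes were a list of 45 proliferation genes, chosen by function and matched by symbol to the expression table. No measured value was a criterion, but this list and the other gene lists below were made with earlier results of these data known. Of these 45 genes, 35 were among the 12185 genes of the table, and the other 10 (Cdkn3, Foxm1, Plk1, Aurkb, Bub1, Kif20b, Nusap1, Hmmr, Cenpf and Racgap1) were not analysed here. RNA-seq gave 50 liver libraries that form a single group, with no treatment and no control group. The mice were N2 males from crossing (B6.A4 x B6)F1 with (B6.A6 x B6)F1 animals, where B6.A4 and B6.A6 are chromosome substitution strains that carry chromosome 4 or chromosome 6 of A/J on a C57BL/6J (B6) background. Each animal therefore had 1 chromosome 4 and 1 chromosome 6 wholly from B6, while the homologs were recombinants of A/J and B6, and the remaining chromosomes were from B6. The mice were 5 weeks old and were fasted overnight before the caudate lobe of the liver was taken. The deposited labels describe them as adult F2 animals. The genotype of each mouse was not used here, so the values below are over all mice. The only labels that differed were the library number and the animal number in the sample titles. Library numbers 1 to 30 are called the first set (28 libraries) and 31 to 59 the second set (22 libraries). What the sets and the order of the animal numbers stand for is not given in the labels. There were 48 distinct animal numbers, because 2 of them occur on 2 libraries each. Each library is called a liver below, although libraries that share a number may come from the same animal.

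Cells that divide copy their DNA in S phase and separate the copies in mitosis, and each step uses its own set of proteins. Before S phase the MCM helicase is loaded onto DNA, ribonucleotide reductase supplies deoxynucleotides, and E2F transcription factors turn on the genes for both. In mitosis cyclin B with Cdk1, the Aurora kinases, spindle motors and the anaphase-promoting complex act in turn, and most of their genes are held silent by the DREAM complex in resting cells. Hepatocytes of the adult liver rarely divide, while the liver of a young mouse is still growing.

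Expression was measured as normalized CPM, in which the reads counted for a gene are scaled to a library size made comparable between libraries. Depth was between 11965594 and 29976557 counted reads, so that 3 reads, taken as the lowest level at which a gene is called present, corresponded to between 0.0951 and 0.259 normalized CPM. Floors and counting errors cover counting error only, since PCR copies are not independent molecules. Hepatocyte markers were abundant in all libraries, with albumin (Alb) between 57040 and 94538 normalized CPM. Library 24 stood apart, with Cyp2b13, a gene typical of female liver, at 16.8 normalized CPM against a median of 0 and a highest value of 0.540 in the other 49. The counts of proliferation genes called with Mki67 and with animal number are given with and without it. The slopes of the other gene lists are given over all 50 libraries only. Fewer dividing cells and less RNA per dividing cell cannot be told apart in these bulk samples. Since nothing but the animal number shows which libraries came from separate animals, p-values measure the spread between these libraries.

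Few reads fell on the proliferation genes. The median of their mean values was 1.38 normalized CPM, not scaled for length, against 11.2 for the median gene of the table. A mean of at least 1 was reached by 19 of the 35 genes (54.3%), against 93.9% of all genes, and 23 genes were above 3 reads in every library. Prc1 was the only one with a count of 0, in 1 library. The genes also varied more between livers than most, with a median coefficient of variation (CV, the SD divided by the mean) of 36.5% against 17.2% over all genes. Low counts account for part of this by construction, because the Poisson error of the reads made up a median of 39.2% of the variance between livers for these genes and 25.3% over all genes. Compared with the 200 genes nearest to each in mean value, 24 of the 35 were above the median CV and 6 were above the CV of 90% of them. Ccne2, Cdc20, Stmn1 and Smc2 lie on chromosome 4, and Mcm2 and Ncapd2 lie on chromosome 6, the chromosomes that segregated in the cross. The plot of values by gene shows these levels for each liver.

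**Figure D1:**
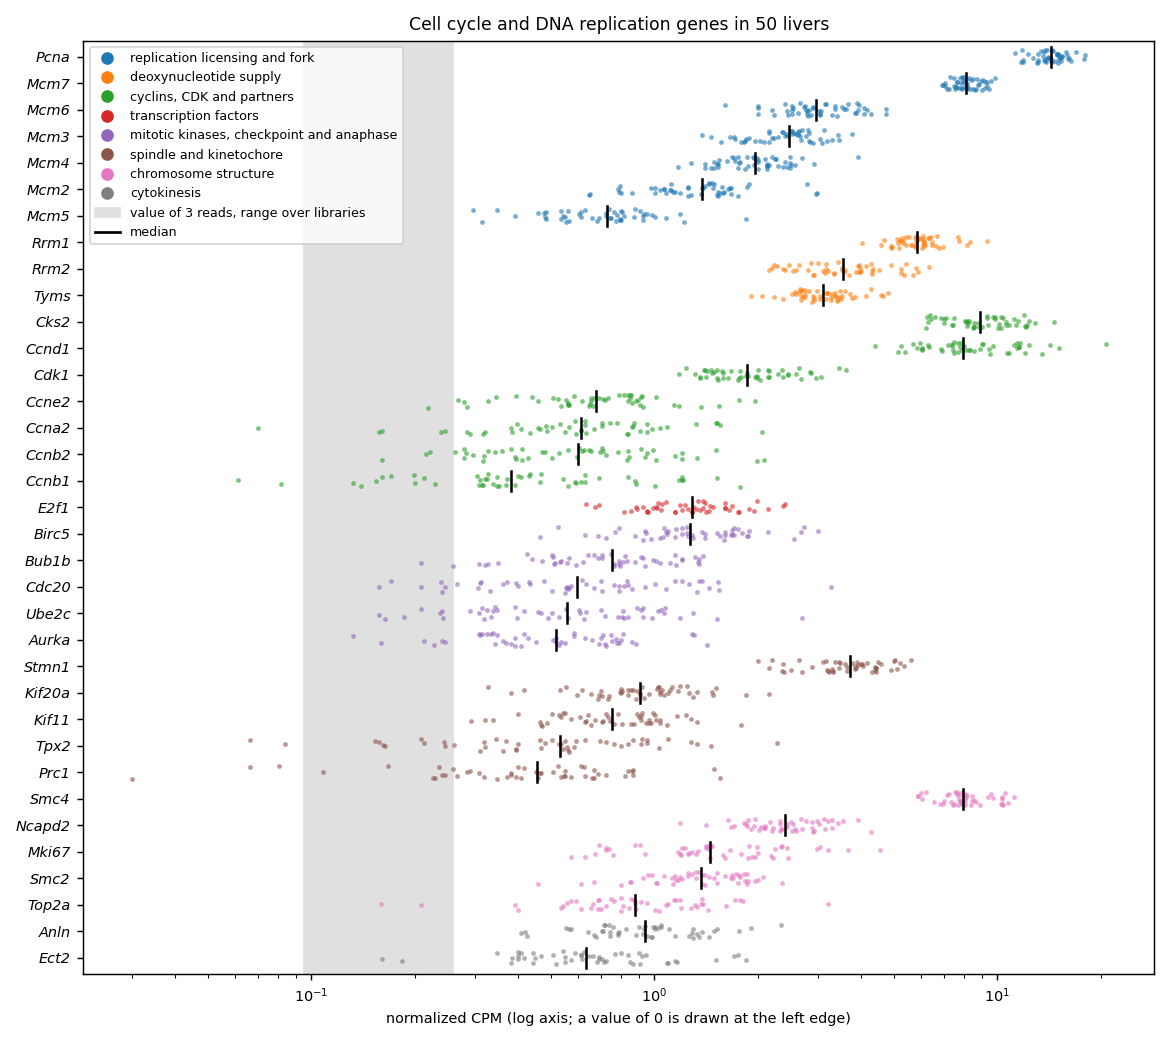
Normalized CPM (horizontal log axis) of the 35 genes in each of 50 livers, 1 point per liver, grouped and coloured by role, with the median as a black bar and the range of the value of 3 reads in grey. Ccnb1, Cdc20 and Tpx2 had the highest CVs of the 35 genes, from 69.3% to 73.6%, and Mcm7 and Pcna had the lowest.

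Mki67 encodes Ki-67, a protein that coats mitotic chromosomes and is used as a marker of cycling cells. The gene (ENSMUSG00000031004) lies on the minus strand of chromosome 7, from 135689784 to 135716361 (GRCm38). Its lowest, median and highest values were 0.573, 1.45 and 4.55 normalized CPM, which rested on 7, 24.5 and 64 reads. The highest liver was thus 3.14-fold above the median, and counting error made up 16.4% of the variance. 5 libraries were near or above 3 (numbers 15, 24, 12, 45 and 11), and the remainder lay between 0.573 and 2.45.

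Among the genes of chromosome structure, Top2a, the topoisomerase that untangles replicated DNA, ranged from 0.160 to 3.20 with a median of 0.877 normalized CPM. The condensin subunits were more even. Smc4 ranged from 5.86 to 11.2 with a median of 7.93, Smc2 from 0.459 to 2.36 with a median of 1.36, and Ncapd2 from 1.18 to 4.27 with a median of 2.40. Smc2 and Smc4 form the core of condensin, and Ncapd2 is a regulatory subunit of condensin I. For Smc4 the CV was 16.4%, and for Top2a it was 51.2%.

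The mitotic cyclins were among the most variable genes. Ccnb1, the cyclin B that activates Cdk1 at entry into mitosis, ranged from 0.0611 to 1.78 with a median of 0.383 normalized CPM (CV 73.6%), and in 10 libraries it had 3 reads or fewer. Ccnb2, the second cyclin B, ranged from 0.160 to 2.09 with a median of 0.600 (CV 62.8%), and Ccna2, the cyclin of S phase and early mitosis, from 0.0697 to 2.06 with a median of 0.611 (CV 58.3%). Counting error was between 24.1% and 29.2% of the variance for these 3 cyclins. Cdk1, the kinase they activate, ranged from 1.18 to 3.63 with a median of 1.86. Ccne2, the cyclin E of entry into S phase, ranged from 0.219 to 1.97 with a median of 0.678. Ccnd1, the cyclin D that responds to growth signals and starts the cycle, ranged from 4.39 to 20.7 with a median of 7.95, and counting error was only 6.45% of its variance. Cks2, a small protein that binds Cdk1, ranged from 6.20 to 14.6 with a median of 8.93.

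The CVs of the 5 genes of the spindle checkpoint and anaphase ran from 40.4% to 72.0%. Cdc20, which activates the anaphase-promoting complex, ranged from 0.157 to 3.27 with a median of 0.595 normalized CPM, and had the second highest CV of the 35 genes. Ube2c, the ubiquitin-conjugating enzyme of that complex, ranged from 0.157 to 2.70 with a median of 0.557. Aurka, a kinase of the spindle poles, ranged from 0.133 to 1.42 with a median of 0.518. The other members of this group were Bub1b (0.209 to 1.39, median 0.753), a checkpoint protein that holds back anaphase, and Birc5 (0.464 to 3.01, median 1.27), the survivin subunit of the chromosomal passenger complex. Of the spindle genes, Tpx2, which activates Aurora A on microtubules, ranged from 0.0662 to 2.28 with a median of 0.530. Prc1, a crosslinker of the central spindle, ranged from 0 to 1.55 with a median of 0.456. The motor genes Kif11 and Kif20a had medians of 0.753 and 0.906. Stmn1, which destabilizes microtubules, ranged from 2.01 to 5.60 with a median of 3.72. In cytokinesis, Anln, a scaffold of the contractile ring, had a median of 0.937, and Ect2, which activates RhoA at the cleavage site, had a median of 0.634 and a range from 0.161 to 1.85.

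The CVs of the 7 genes of replication licensing and the fork ran from 9.14% for Mcm7 to 36.5% for Mcm5, with a median of 23.4%. Pcna, the sliding clamp of DNA polymerases, ranged from 11.2 to 18 with a median of 14.3 normalized CPM (CV 10.3%). Mcm7, a subunit of the MCM helicase, ranged from 6.90 to 9.82 with a median of 8.10, and counting error was 99.4% of its variance, so that no variation between livers beyond counting was detectable at this depth. The other helicase subunits had medians of 1.38 for Mcm2, 2.47 for Mcm3, 1.97 for Mcm4, 0.730 for Mcm5 and 2.96 for Mcm6. Rrm1 and Rrm2, the large and small subunits of ribonucleotide reductase, had medians of 5.82 and 3.56, and Tyms, the thymidylate synthase, 3.1. E2f1, a transcription factor of S phase genes, had a median of 1.29 and a range from 0.631 to 2.40. On the scale of normalized CPM per kilobase of exon, mean levels of the 35 genes ran from 0.0599 for Prc1 to 13.3 for Cks2. Pseudogenes and other copies may share reads with some of these genes. Of the 31-base stretches of its transcripts, Cks2 shared 31.7%, Ccnb1 27.7%, Mcm7 26.8%, Cdc20 25.5%, Pcna 23.3% and Stmn1 22.4% with other annotated genes. The effect of this sharing on their levels was not measured.

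High values of many genes coincided in a few livers. Library 15 of the first set had the highest value of 17 of the 35 genes and was among the 5 highest libraries for 27, and it was among the 5 lowest for 0. The same counts over all genes of the table were not made for any library. Genes of other kinds were also highest in library 15, such as Gadd45b, Gadd45g, Peg3, Des and Rgs5, while Tat, Ccnf and Tfdp1 were lowest there. In this liver Mki67 was at 4.55, Cdc20 at 3.27, Top2a at 3.20 and Ccnb1 at 1.78 normalized CPM. Library 45 of the second set was highest for 6 genes (among them Ccnb2, Prc1, Kif20a and Smc2) and among the 5 highest for 14. Library 24, with the second highest Mki67 at 3.67, was among the 5 highest for 11 genes. At the other end, library 44 had the lowest Mki67 but the highest Pcna, at 18. Libraries 8 and 10, which share an animal number, had Mki67 at 1.26 and 1.44, while libraries 22 and 55, which also share one, had 1.87 and 1.28. The sum of 8 erythroid genes was likewise highest in library 15, at 332 normalized CPM against a median of 205 and a lowest of 129, and the sum of 7 lymphocyte and neutrophil genes was highest there too, at 23.6 against a median of 16.7. Library 15 ranked 38 of 50 for the sum of the Kupffer cell and macrophage genes. The part of these cells in the result was not tested. The heatmap of deviations orders the livers by Mki67.

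**Figure D2:**
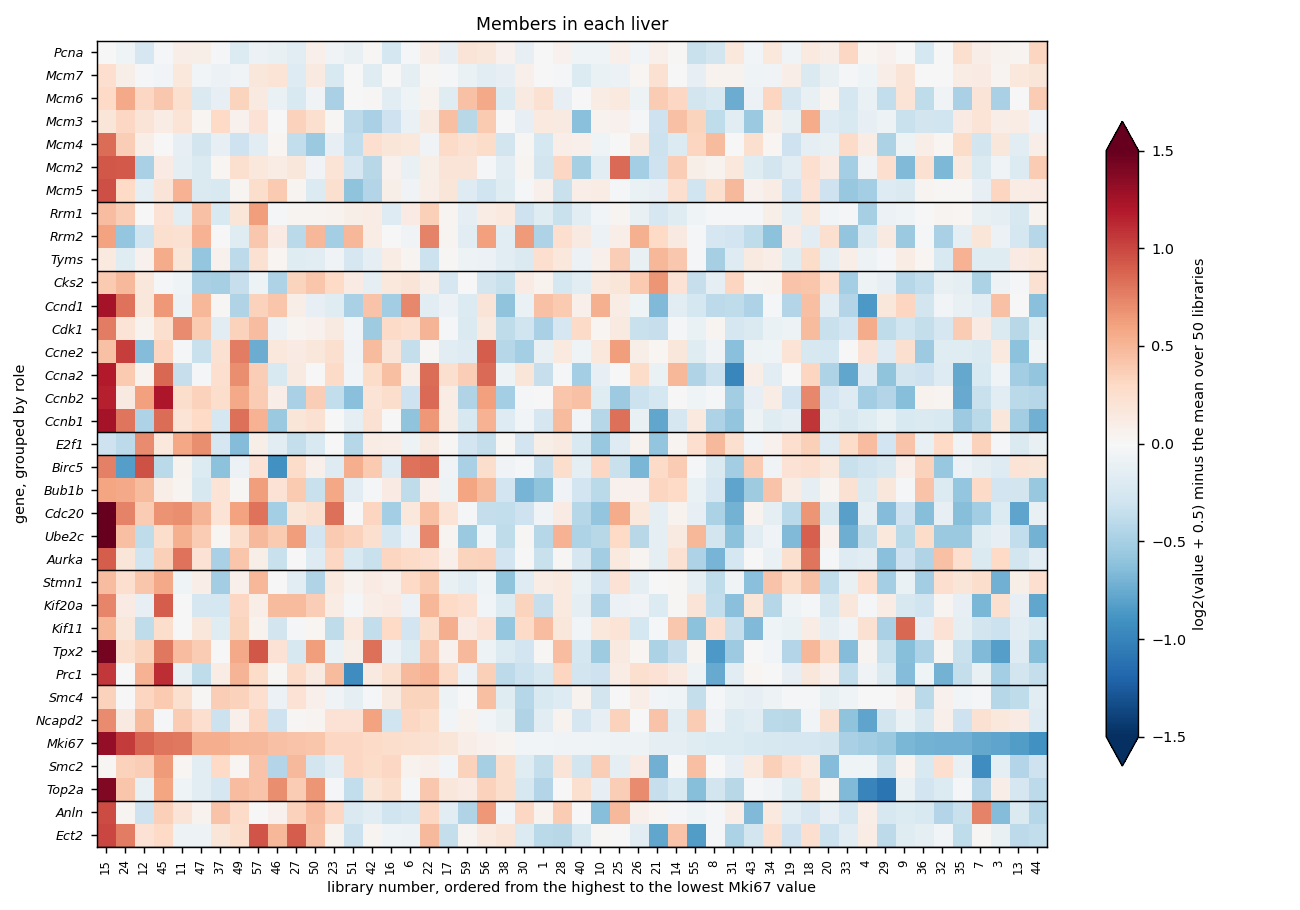
Deviation of each gene (rows, grouped by role) from its own mean over 50 livers, as log2(value + 0.5), in each library (columns, ordered from the highest to the lowest Mki67), with colours limited to 1.5 in either direction. Library 15 at the left was high in most rows, most of all in the mitotic rows, while Pcna and Mcm7 were pale throughout.

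Across the 595 pairs of the 35 genes, the Pearson correlation of log2(value + 0.5) over the 50 livers had a median of 0.236, as a description of genes measured in the same libraries. It was above 0 in 510 pairs. The median was 0.342 over 136 pairs of genes of mitosis (checkpoint, spindle, chromosome structure and cytokinesis), 0.119 over 45 pairs of replication and deoxynucleotide genes, and 0.162 over 170 pairs of one with the other. The highest was 0.769, between Cdc20 and Tpx2, followed by 0.724 between Cdc20 and Mki67, 0.720 between Ccnb1 and Cdc20 and 0.719 between Ccnb1 and Ube2c. Cdc20 had the highest median correlation with the other 34 genes, at 0.436, while Mcm7, Pcna and E2f1 had medians just below 0.

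To ask which genes varied together with the proliferation marker, log2(value + 0.5) of each gene of the table was regressed on log2(value + 0.5) of Mki67 over the 50 livers in limma, and genes with a Benjamini-Hochberg adjusted p under 0.05 were called. The slope is the change of a gene, in log2 units, per log2 unit of Mki67. When all 12184 other genes of the table were tested, 5.25% were called higher with Mki67 and 6.24% lower, and 18 of the 34 other proliferation genes were higher and 0 lower. The median slope was 0.24 over these 34 genes and -0.00 over all genes. In the fit restricted to genes with a mean of at least 1, which leaves out 16 of the 35 genes, 5.04% of 11435 genes were called higher and 6.56% lower, and 6 of 18 proliferation genes were higher (Smc4, Cdk1, Rrm1, Ccnd1, Ncapd2 and Smc2) and 0 lower. With plain CPM, which has no scaling between libraries, the split of called genes was 1910 higher and 264 lower, against 576 higher and 750 lower with the deposited values, the median slope of all genes was 0.06, and 10 of the 18 were called higher.

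By role, the fit over the whole table called 4 of 4 genes of chromosome structure, 5 of 7 cyclins, Cdk1 and partners, 2 of 2 genes of cytokinesis, 3 of 5 genes of the checkpoint and anaphase, 3 of 5 spindle genes and 1 of 3 genes of deoxynucleotide supply. It called 0 of 7 genes of replication licensing and the fork (limma), of which Mcm2, Mcm5, Mcm6 and Pcna had an unadjusted p under 0.05, and edgeR called 0 of these 7 as well. The steepest slopes were those of Cdc20 (0.73 ± 0.10, SE, adjusted p = 5.84e-06) and Tpx2 (0.66 ± 0.09, adjusted p = 1.53e-05). Ccna2 followed at 0.55 ± 0.10 (adjusted p = 0.000326), Ccnb2 at 0.53 ± 0.10 (adjusted p = 0.000727), Top2a at 0.51 ± 0.10 (adjusted p = 0.000670) and Ube2c at 0.51 ± 0.11 (adjusted p = 0.00157). Ccnb1 and Prc1 each rose by 0.47, with SEs of 0.11 and 0.09, and Ect2 by 0.45 ± 0.09.

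The remaining called genes had shallower slopes, which were 0.37 for Ccnd1, 0.33 for Kif20a, 0.30 for Anln and for Cdk1, 0.28 for Bub1b, 0.26 for Smc2 and for Ncapd2, 0.25 for Smc4 and 0.19 for Rrm1. Smc4 had the smallest SE of these relative to its slope (0.25 ± 0.05, adjusted p = 0.00119). Among those that did not pass, Aurka had a slope of 0.24 (adjusted p = 0.0875), Ccne2 0.23 (adjusted p = 0.117), Rrm2 0.22 (adjusted p = 0.115) and Mcm2 0.21 (adjusted p = 0.124). The slope of Pcna was -0.09 ± 0.04 (adjusted p = 0.130), that of E2f1 -0.06, that of Tyms -0.03 and that of Mcm7 -0.02. The plot of slopes gives all 34 genes.

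**Figure D3:**
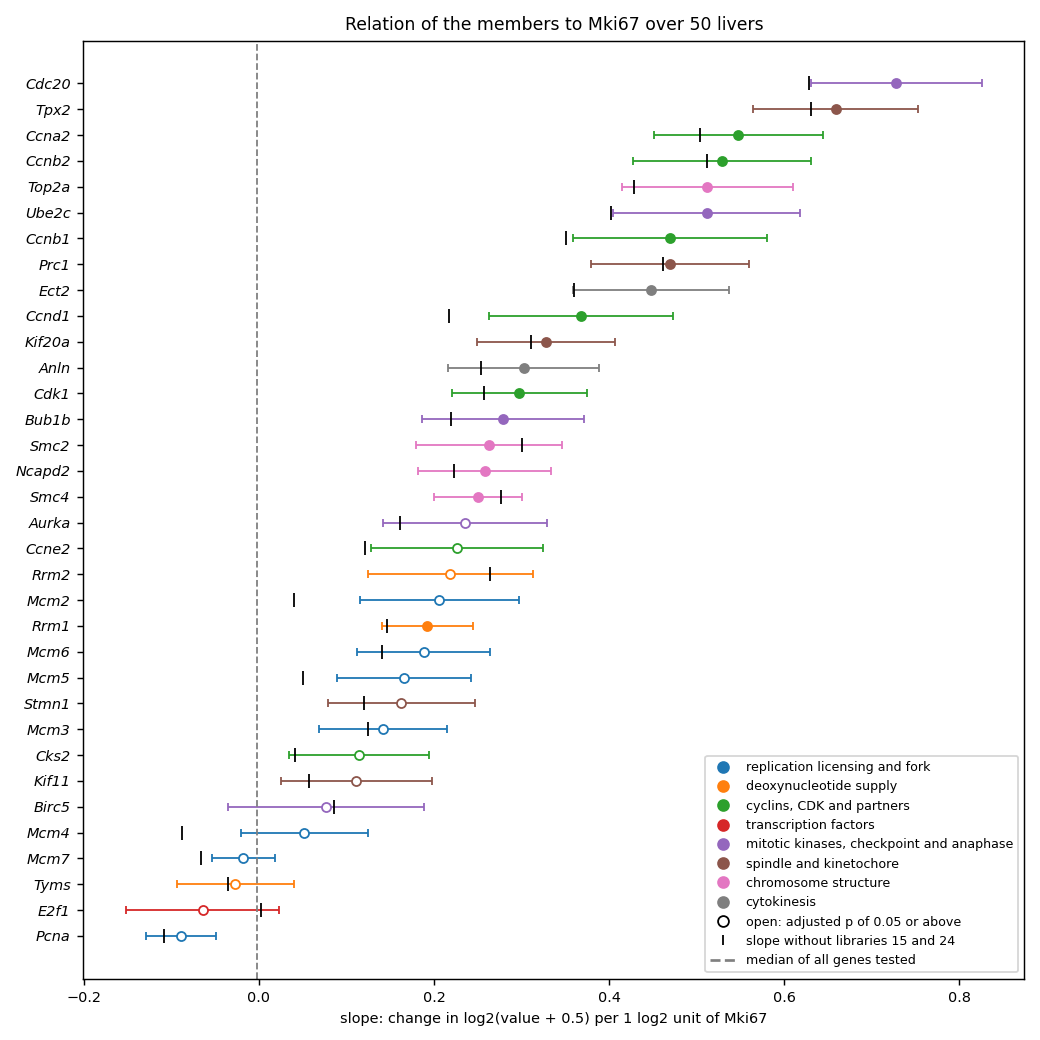
Slope of each of the 34 genes on Mki67 (horizontal axis, log2 units per log2 unit of Mki67, ± SE) over 50 livers, coloured by role, with filled circles where the adjusted p is under 0.05, black ticks for the slope without libraries 15 and 24, and a dashed line at the median of all genes. Cdc20 and Tpx2 lay at the top, and the replication genes lay in the lower part with open circles.

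Libraries 15 and 24 were the farthest from the median of Mki67. Without both, 2.4% of all genes were called higher and 4.13% lower, and 11 of the 34 proliferation genes, all among the 18, were higher (Cdc20, Tpx2, Ccna2, Ccnb2, Top2a, Ube2c, Prc1, Ect2, Kif20a, Smc2 and Smc4). Without library 15 alone, 3.52% of all genes were called higher and 4.84% lower, and 14 of the 34 were higher. Without library 24 alone, these shares were 3.86% and 5.08%, and 17 of the 34 were higher. Without both libraries the slopes of Cdc20 and Tpx2 were 0.63 and 0.63, and those of Mcm2 and Mcm5 were 0.04 and 0.05. Of the called genes, Ccnd1 moved most and had a slope of 0.22 without these 2 libraries (adjusted p = 0.235).

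Within the first set of libraries, where 0.131% of all genes were called higher and 0.0328% lower, 3 proliferation genes (Cdc20, Tpx2 and Prc1) were called, and within the second set, where 3.6% were called higher and 5.0% lower, 10 were called higher, of which 9 were among the 18. The other gene was Rrm2, whose slopes differed between the sets with an unadjusted p of 0.0227 but an adjusted p of 0.417. A test of the difference in slope between the sets called 0 of the 12184 genes with limma (1305 had an unadjusted p under 0.05, among them Mcm4, Rrm2, Mcm5 and Cks2), so no difference between the sets was shown for any of the proliferation genes. With library set as a covariate, 5.95% of all genes were called higher and 7.12% lower, and the same 18 genes were higher. With Top2a in place of Mki67 as the marker, 1.69% of all genes were called higher and 1.3% lower, and 14 of 34 proliferation genes were higher, 11 of them among the 18, together with Mki67, Aurka and Mcm5.

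Slopes on Mki67 depended on the length of a gene. Over the whole table, in 5 classes of equal size, the median slope was -0.06 in the class with the shortest exons and 0.05 in the class with the longest, and 15.1% of the former were called lower while 9.77% of the latter were called higher. Such a trend moved with Mki67 in these libraries, and its part in the results was not tested beyond a correction. The correction subtracted each library's median deviation in 20 bins of exon length. The 5 medians were then all 0.00 after rounding, which follows largely by construction. After it, 4.26% of all genes were called higher and 3.67% lower, and 18 of the 34 proliferation genes were called higher. Of these, 16 were the same genes, Rrm1 and Smc2 no longer passed, and Aurka and Cks2 did. The short genes Cdc20 and Ube2c had steeper slopes after the correction, at 0.85 and 0.59.

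**Figure D4:**
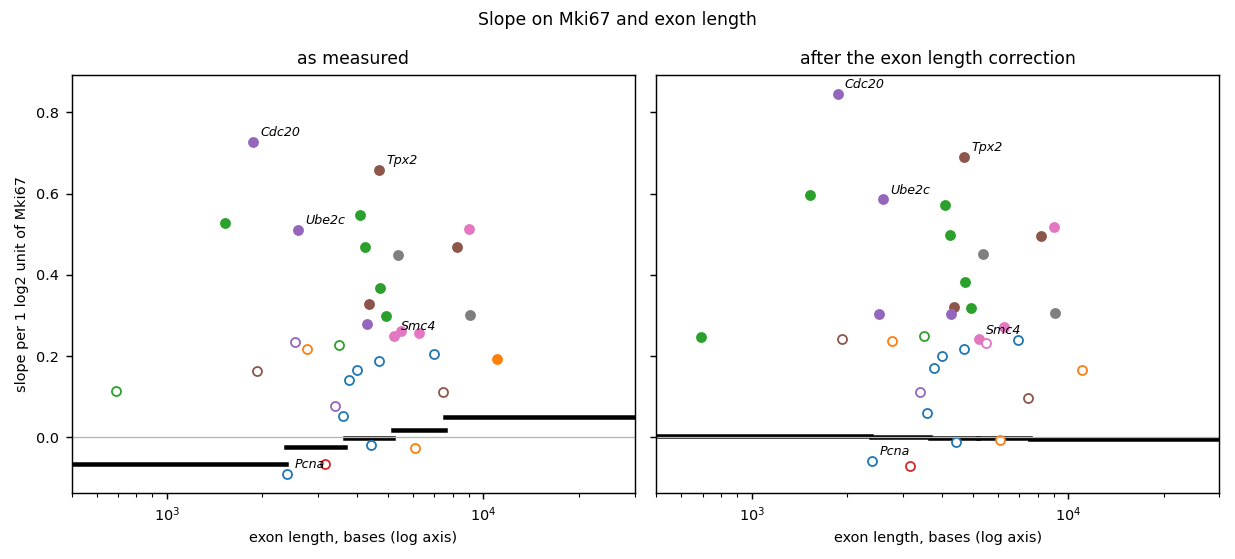
Slope on Mki67 (vertical axis, log2 units per log2 unit of Mki67) against exon length in bases (log axis), before and after the length correction, with black bars for the median of all genes in each of 5 classes of length and circles for the proliferation genes, coloured by role as in the plot of slopes and filled where called. The bars rose with length before the correction and were level after it, while Cdc20 and Tpx2 lay highest in both panels.

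For 6 gene pairs, correlations with Mki67 were tested one at a time with 100000 permutations, 2-sided, and adjusted over the 6. Mki67 correlated with Top2a (Pearson r = 0.595, permutation p = 1e-05, the smallest these permutations can give, adjusted p = 3e-05; Spearman rho = 0.543, p = 5e-05, adjusted p = 0.0003). The correlation with Cdk1 was r = 0.478 (permutation p = 0.00064, adjusted p = 0.00128; rho = 0.437, p = 0.00158, adjusted p = 0.00316), and that with Ccnd1 was r = 0.441 (permutation p = 0.00141, adjusted p = 0.00211; rho = 0.337, p = 0.0171, adjusted p = 0.0206). Top2a and Cdk1 held without libraries 15 and 24, at r = 0.497 and 0.390, while Ccnd1 fell to r = 0.265 (permutation p = 0.0687) and thus rested in part on these libraries. Within the first and the second set, r was 0.594 and 0.599 for Top2a, 0.542 and 0.378 for Cdk1, and 0.390 and 0.553 for Ccnd1, of which Cdk1 in the second set did not pass (adjusted p = 0.125, permutation test). By Spearman rho, Ccnd1 in the first set did not pass (rho = 0.227, adjusted p = 0.245, permutation test), while Cdk1 in the second set did (rho = 0.466, adjusted p = 0.0451).

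For the replication genes, Mcm5 had r = 0.293 (permutation p = 0.0383, adjusted p = 0.0383) but rho = 0.137 (p = 0.343), and r was 0.0914 without libraries 15 and 24, so that the relation rested on those samples. Within the first set r was 0.546 (adjusted p = 0.00435, permutation test) and within the second -0.0609. The first set did not pass by Spearman rho (rho = 0.346, adjusted p = 0.0856, permutation test). Pcna was negatively correlated with Mki67 (r = -0.317, permutation p = 0.0238, adjusted p = 0.0286; rho = -0.351, p = 0.013, adjusted p = 0.0194), and r was -0.340 without libraries 15 and 24, -0.344 within the first set and -0.322 within the second, neither of which passed (adjusted p = 0.0713 and 0.172, permutation test). By Spearman rho, Pcna passed in the first set (rho = -0.428, adjusted p = 0.0493, permutation test) and not in the second (rho = -0.354, adjusted p = 0.127). With plain CPM the correlation of Pcna was -0.0970, so that its sign was kept and the test was not passed. H19, a noncoding RNA that is abundant in the liver before birth and silenced afterwards, correlated with Mki67 (r = 0.581, permutation p = 1e-05, the smallest possible, adjusted p = 3e-05) and had rho = 0.484 (p = 0.00052, adjusted p = 0.00156). Without library 24 it had r = 0.527 (permutation p = 0.0001), and without libraries 15 and 24 it had r = 0.440 (permutation p = 0.00148), with 0.577 within the first set and 0.606 within the second. By Spearman rho, H19 did not pass in the first set (rho = 0.391, adjusted p = 0.0622, permutation test) and passed in the second (rho = 0.587, adjusted p = 0.0275). H19 was listed at 0 in libraries 11, 33 and 35, and its median was 0.334 normalized CPM. Many libraries were near or below the value of 3 reads, which ran from 0.0951 to 0.259. The highest values of H19 were 14.6 in library 24, 9.44 in library 45, 9.43 in library 22 and 8.33 in library 15.

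**Figure D5:**
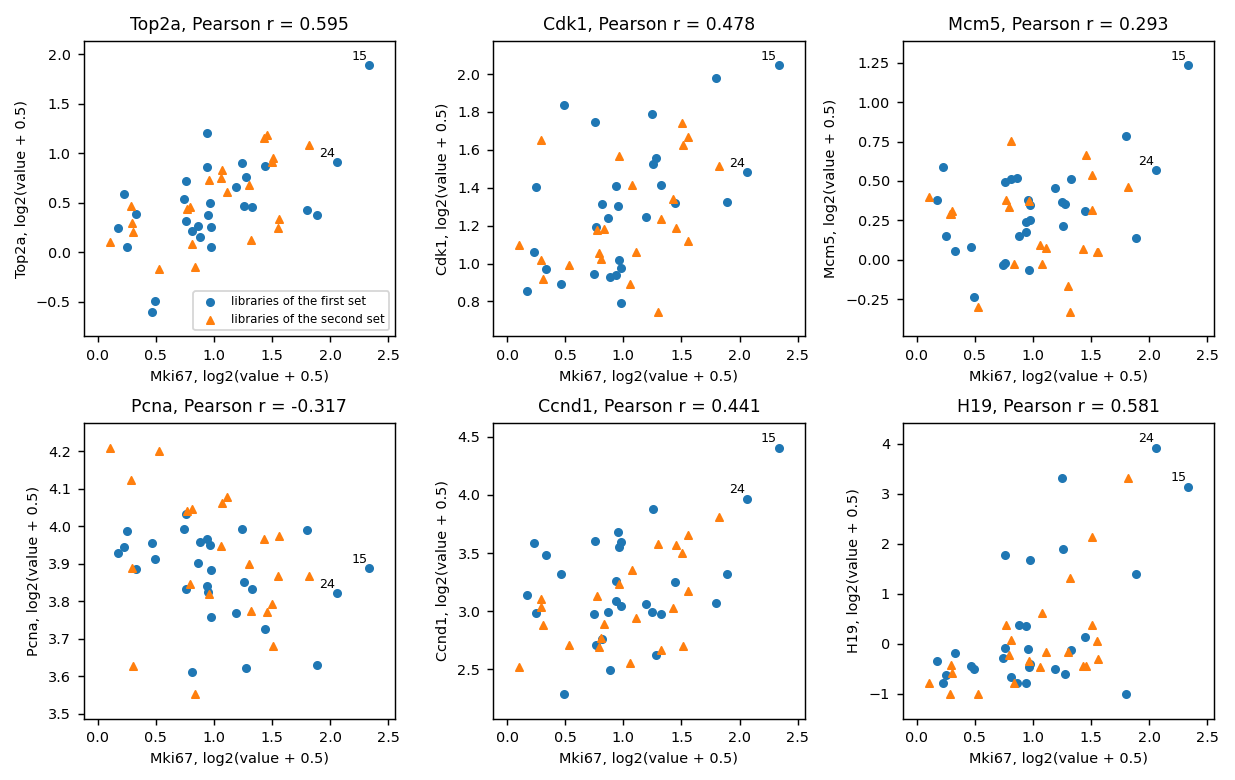
Each of 6 genes (vertical axes) against Mki67 (horizontal axes), both as log2(value + 0.5), 1 point per liver, with circles for the first and triangles for the second set of libraries, and libraries 15 and 24 marked. Top2a rose with Mki67 in both sets, Pcna fell slightly, and the slope of Mcm5 rested on libraries 15 and 24.

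Promoter sequences were examined for the genes that moved together. A promoter window ran from 250 bases before to 50 bases after the transcription start in RefSeq (GRCm38.p6), and 27 of the 35 genes had 30 such windows. Each window was searched on both strands for the CHR (TTTGAA), an element bound by the DREAM complex, for the CCAAT box (CCAAT), bound by NF-Y, and for E2F motifs (TTCCCGC or else TTCGCGC, with TTGCCGC and also TTGGCGC). A CHR was found in 56.7% of the windows of the proliferation genes, against 12.1% of the windows of all genes in the expression table and 17.9% of all RefSeq windows. The CCAAT box was found in 86.7%, against 37.4% and 37.4%, and an E2F motif in 43.3%, against 15.8% and 9.57%. Of the 26 genes with a window other than Mki67, 13 rose with Mki67 in the fit over the whole table and 13 did not pass. A CHR was held by 11 of the former and 3 of the latter (Mcm2, Aurka and Kif11), a CCAAT box by 12 and 10, and an E2F motif by 5 and 5. By role, 13 of 17 genes outside replication and deoxynucleotide supply had a CHR and 4 an E2F motif, whereas of 9 replication and deoxynucleotide genes 1 had a CHR and 6 an E2F motif. A match is a description of letters in the window, and binding was not measured.

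The windows of 4 genes are shown as examples, and they do not stand for all genes of their roles. Among genes with a window, Cdc20 and Top2a had the highest correlations with Mki67 of those that hold a CHR, Ect2 was the next gene that also holds an E2F motif, and Mcm6, a gene of replication licensing that did not pass, was chosen after its values were seen. Capitals mark the CHR, CCAAT box and E2F matches on either strand, and each window is given 5′ to 3′ on the gene's strand, which is the minus strand for all 4. The positions are chr4:118437294-118437593 for Cdc20, chr11:99024140-99024439 for Top2a, chr3:27153805-27154104 for Ect2 and chr1:128359656-128359955 for Mcm6 (GRCm38.p6).
Cdc20: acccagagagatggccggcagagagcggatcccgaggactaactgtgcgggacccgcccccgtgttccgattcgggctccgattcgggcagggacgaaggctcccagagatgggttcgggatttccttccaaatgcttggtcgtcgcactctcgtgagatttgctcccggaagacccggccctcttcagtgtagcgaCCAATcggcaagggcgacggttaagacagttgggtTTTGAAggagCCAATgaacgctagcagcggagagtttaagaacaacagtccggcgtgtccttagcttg
Top2a: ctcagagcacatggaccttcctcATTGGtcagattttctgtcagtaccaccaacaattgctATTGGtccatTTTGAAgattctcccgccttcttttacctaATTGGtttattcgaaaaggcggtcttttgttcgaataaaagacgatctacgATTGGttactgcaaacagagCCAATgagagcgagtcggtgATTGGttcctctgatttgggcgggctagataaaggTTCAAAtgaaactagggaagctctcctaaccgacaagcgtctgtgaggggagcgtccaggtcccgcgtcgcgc
Ect2: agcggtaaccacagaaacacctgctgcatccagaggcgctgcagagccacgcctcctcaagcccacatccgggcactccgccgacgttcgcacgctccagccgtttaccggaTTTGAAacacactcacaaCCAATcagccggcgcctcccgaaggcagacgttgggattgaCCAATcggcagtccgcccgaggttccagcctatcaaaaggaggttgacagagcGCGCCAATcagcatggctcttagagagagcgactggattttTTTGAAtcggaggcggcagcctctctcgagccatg
Mcm6: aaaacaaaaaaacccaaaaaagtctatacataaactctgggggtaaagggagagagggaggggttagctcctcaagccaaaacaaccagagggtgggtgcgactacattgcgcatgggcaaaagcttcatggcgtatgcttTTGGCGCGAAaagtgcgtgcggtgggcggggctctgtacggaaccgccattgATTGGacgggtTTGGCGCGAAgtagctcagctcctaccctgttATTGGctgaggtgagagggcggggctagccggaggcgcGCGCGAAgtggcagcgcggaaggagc
In Cdc20, the CHR begins at -18 relative to the start, between CCAAT boxes at -53 and -8. Top2a holds 2 CHR matches and 6 CCAAT boxes. The E2F match of Ect2 overlaps a CCAAT box, and its 2 CHR matches lie at -138 and 16. Mcm6 holds 5 E2F matches, 4 of which overlap in 2 pairs on opposite strands, and no CHR. No other window of the proliferation genes holds as many E2F matches, and those of Mcm2, Pcna and Tyms hold none.

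Other genes of the same pathways, taken from lists by function, were tested in the same fit over the whole table, in which 5.25% of all genes were called higher and 6.24% lower. Of 51 other mitosis genes 19 were in the table, and 6 rose with Mki67 and 0 fell. These were Ckap2l (0.50 ± 0.08, SE, adjusted p = 0.000127), a spindle protein, the kinetochore motor Cenpe (0.38), Incenp (0.41), the passenger complex scaffold, the chromatin protein Hmgb2 (0.52), the centromeric histone Cenpa (0.27) and Cdca3 (0.32). All but Cdca3 were highest in library 15, where Hmgb2 was at 21.7 normalized CPM against a median of 3.80. Slopes without that library are not given for these lists. Of 42 other replication genes 35 were in the table, and 0 rose and 2 fell, with Mcm10, a replication initiation factor, at -0.49 ± 0.11 (adjusted p = 0.00391) and Orc4, a subunit of the origin recognition complex, at -0.12 ± 0.04 (adjusted p = 0.0428), so that the share called lower was near that of all genes. Mcm10 had a median of 32.1 normalized CPM. Of the other cyclins, CDKs and E2F-RB regulators, 3 of 29 rose (Rbl1, Lin9 and Tfdp2) and 2 fell (Ccnf and E2f4), the latter again near the share of all genes. Of the 14 cell cycle brakes in the table, among them Cdkn1a, limma called 0 and edgeR 1 (Btg2), and 2 had an unadjusted p under 0.05.

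Some markers of other cell types moved with Mki67, and their counts stand beside the 5.25% of all genes called higher and 6.24% called lower. Of the 8 erythroid genes in the table, 5 rose, which were the globin genes Hbb-bt (0.59), Hba-a1 (0.62), Hba-a2 (0.59) and Hbb-bs (0.51) and the carbonic anhydrase Car2 (0.28), while Alas2, Klf1 and Tfrc did not pass. Hba-a1, Hba-a2, Hbb-bs and Car2 were highest in library 15, and Hbb-bt was highest in library 24. Slopes without these libraries are not given for the marker lists. Of 12 endothelial genes 6 rose, with the smallest adjusted p for Cdh5 (0.27) and the steepest slope for Lyve1 (0.39), and 1 fell (Clec4g, -0.17), and of 12 genes of stellate cells and fibroblasts 5 rose, with the smallest adjusted p and the steepest slope for Col3a1 (0.62). Ighm rose among 7 lymphocyte and neutrophil genes, and Csf1r among 13 Kupffer cell and macrophage genes, the latter a share near that of all genes. Of 5 cholangiocyte genes limma called 0 and edgeR 0, with 3 at an unadjusted p under 0.05. Among 8 hepatocyte genes, Cps1 rose (0.28) and Cyp2e1 and Ttr fell (-0.23 and -0.13). The part of these cell types in the slopes of the proliferation genes was not tested.

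The relation to animal number was tested next, as 1 of the 2 labels that varied. Rrm2 and Mcm2 rose with animal number in both the filtered and the unfiltered fit below, and 0 proliferation genes were called lower in either. With library set as a covariate, 907 of 11436 genes were called higher and 866 lower. Of the 19 proliferation genes in that fit, E2f1 was called lower (-0.24, limma, adjusted p = 0.0403), and Rrm2 and Mcm2 were called higher. In the fit of genes with a mean of at least 1, where 7.49% of 11436 genes were called higher and 6.73% lower, Rrm2 rose by 0.36 ± 0.09 log2 units per 100 animal numbers (adjusted p = 0.00428) and Mcm2 by 0.27 ± 0.09 (adjusted p = 0.0359), as 2 of 19 genes. Mki67 had a slope of 0.36 ± 0.13 (adjusted p = 0.0620), and E2f1 of -0.22 ± 0.08 (adjusted p = 0.0609). In the fit over the whole table, 7.48% of genes were called higher and 6.42% lower, and 7 of the 35 were higher and 0 lower. These were Ube2c (0.42 ± 0.12), Ccna2 (0.39 ± 0.11), Ccnb1 (0.38 ± 0.12), Rrm2, Bub1b (0.28 ± 0.09), Mcm2 and Kif20a (0.27 ± 0.08), with adjusted p between 0.00446 for Rrm2 and 0.0378 for Bub1b. Without the 4 libraries that share an animal number, 841 of 12185 genes were called higher and 689 lower. Of the 35, 5 were then higher, E2f1 was lower, and Kif20a and Mcm2 no longer passed. Without library 24, where 6.57% of genes were called higher and 5.59% lower, Bub1b and Mcm2 no longer passed. Without library 15, where 7.66% were higher and 6.65% lower, Tpx2 passed as well. Of the 7 genes, 5 were also among the 18 that rose with Mki67, and the exceptions were Rrm2 and Mcm2. With animal number as a covariate, 3.42% of all genes were called higher with Mki67 and 5.2% lower, and 15 of the 18 genes still rose with Mki67 in limma, all but Anln, Bub1b and Ncapd2.

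Between the sets of libraries, 1 of 19 proliferation genes was called lower, a share near that of all genes. With 6.42% of 11436 genes called lower and 7.07% higher in the second set, Cks2 was the only called gene of 19, lower by 0.25 ± 0.08 log2 units (limma, adjusted p = 0.0234). With plain CPM 410 genes were called higher and 894 lower, against 808 and 734 with the deposited values, and Cks2 was again the gene called. In the fit over the whole table, 6.52% of genes were called higher and 6.52% lower, with 1 of the 35 lower. Its values ran from 6.35 to 14.6 normalized CPM, with a median of 10.1, in the first set and from 6.20 to 12.2, with a median of 8.13, in the second, so that the sets overlapped widely. Cks2 has the shortest exons of the 35 genes (692 bases), and it no longer passed after the length correction or with counted reads as a covariate. Mki67 was nearly equal, with means of 1.67 ± 0.93 (SD, n = 28) in the first and 1.64 ± 0.69 (SD, n = 22) in the second set. Whether the slope on animal number differed between the sets was also tested, and limma called 4 genes higher (0.035% of the genes with a mean of at least 1 and 0.0328% of the whole table), 0 of them proliferation genes. Of the proliferation genes with a mean of at least 1, Mcm6 had an unadjusted p under 0.05.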

How the data were processed

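Liver RNA was sequenced as 50 stranded TruSeq libraries, which carry 48 distinct animal numbers. Per the labels and the study's methods, reads were trimmed and mapped by HISAT2 (genome GRCm38.p5), HTSeq 0.11.1 gave counts per gene, and edgeR served to remove low genes and to normalize. The trimming tool differs between the sources, and the strand setting of the counting is not given in the sources used here. The authors deposited a normalized signal per gene and library, not raw reads, in which each value is a whole number of reads times the value of 1 read in its library (99.9974% of values whole within 0.01 reads). Whole reads were recovered by that division. Column sums ran from 886171 to 1120650, so the values are not plain CPM.

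The design was fixed for limma 3.58.1 (R 4.3.3) on log2(value + 0.5), 2-sided, over genes with a mean of at least 1, with Benjamini-Hochberg adjustment at 0.05. Folds on this scale understate changes of low genes. Alternatives included no filter, which the report uses because 16 of the 35 genes are below the filter, edgeR 4.0.16 (quasi-likelihood, TMM) and DESeq2 1.42.0 on the whole reads. edgeR called 1256 genes with Mki67, 1596 with animal number and 1647 between the sets. On simulated data for the Mki67 relation, 198 of 200 genes with a slope of 1 were recovered and 10 others were called among 11436. That number is the count of genes with a mean of at least 1. Recovery was not tested in the fit without a filter or at the shallower limma slopes of the proliferation genes. The counting share of a gene's variance was its Poisson variance, taken from the value of 1 read, over the observed variance. Positions and exon lengths came from the GENCODE M21 annotation, promoters from RefSeq.

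The genes and lists were chosen with earlier results of these data known. All 45 genes could be named. Called genes of the lists were named by adjusted p, and outside them the 10 genes most and the 5 least correlated with Mki67. The length correction, the unfiltered fits combined with another change, the difference in slope between the sets and the promoter of Mcm6 were chosen after seeing the data. Python 3.11.15, numpy 2.4.6, pandas 2.3.3 and scipy 1.17.1 were used.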

Additional observations from a re-analysis of the deposited data

How the results depend on the processing

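No alternative tried moved the mean value of any of the 35 genes by more than 1 SD. In the Mki67 relation, 6 genes of 18 were called higher at a mean of at least 1, and 18 of 34 without a filter. The count was also 18 of 34 with edgeR, with library set as a covariate and with the length correction, each unfiltered. It was 10 of 18 with plain CPM and 3 of the 6 genes that could be tested at a mean of at least 5. It was 2 of 18 without libraries 15 and 24, 0 of 19 in the first set alone, 3 of 18 in the second, and 3 of 19 with Top2a as the marker. Of 34 genes unfiltered, 11 were called higher without libraries 15 and 24, 14 with Top2a, and 3 and 10 in each set alone. The unfiltered count was 15 with animal number as a covariate, 14 without library 15 and 17 without library 24. The count of all genes called, 1326, became 2174 with plain CPM, 877 with the length correction, 806 without libraries 15 and 24, 11 in the first set alone and 310 with Top2a, and in unfiltered fits 796 without libraries 15 and 24, 364 with Top2a and 20 in the first set alone.

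For animal number, 2 of 19 genes rose at a mean of at least 1 and 7 of 35 without a filter (also with edgeR). At a mean of at least 5, 0 of 6 rose, but Rrm2 and Mcm2 are below that filter and were not tested there. Of 19 genes, 1 rose without the libraries that share an animal number or without library 24. Unfiltered, 8 rose without library 15, 5 without library 24 and 5 without the shared libraries. E2f1 was the 1 gene called lower without the shared libraries (also unfiltered) and with library set as a covariate. Between the sets, 1542 genes were called and 889 with counted reads as a covariate, and the 1 proliferation gene became 0 there and with the length correction. The 4 genes called for the difference in slope on animal number became 1 at a mean of at least 5 and with edgeR, and 2 without the shared libraries or without library 24.

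Among the gene pairs, Mcm5 went from r = 0.293 to 0.251 (adjusted p = 0.0778, permutation test) with a pseudocount of 0.1, 0.264 without library 24, 0.0914 without libraries 15 and 24, and -0.0609 in the second set alone. Pcna had r = -0.0970 with plain CPM, -0.344 in the first and -0.322 in the second set, Cdk1 0.378 in the second set, and Ccnd1 0.265 without libraries 15 and 24, none of which passed. The causes were not tested. No paired analysis was possible because the labels give a single group. In the median library Prc1 rested on 7 reads and Cdc20 on 9, which limits what can be seen of such genes.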

Other observations

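The 10 genes outside the lists with the highest correlations with Mki67 over the 50 livers are given as values. Lamc1, the laminin gamma 1 chain, had r = 0.741 and a slope of 0.41 ± 0.05 (SE, limma, adjusted p = 5.59e-06), Nid1, nidogen, had r = 0.703 and a slope of 0.50 ± 0.07, and Col4a1, a collagen IV chain, had r = 0.647 and a slope of 0.40 ± 0.07. Loxl2, which crosslinks collagen, had r = 0.665, and the adhesion genes Cdh1 and App had r = 0.659 and 0.680. The others were AI506816 (0.702), Arhgap11a (0.689), Map3k1 (0.656) and Cpd (0.655). Arhgap11a had a mean of 1.4 normalized CPM, and App of 52.8. Lamc1 was thus more closely correlated with Mki67 than Cdc20, the highest of the proliferation genes at 0.724, and the difference between these correlations was not tested.

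The 5 genes with the most negative correlations were Baat (-0.714), which conjugates bile acids, Tmem205 (-0.655), Mup10 (-0.653), a major urinary protein, Cox19 (-0.650) and Prdx5 (-0.650), a peroxiredoxin. Mup10 had the steepest slope, at -0.77 ± 0.12 (limma, adjusted p = 0.000128). Baat and Mup10 lie on chromosome 4, which segregated in the cross, and the part of the genotype in these correlations was not tested. All 15 genes kept an adjusted p under 0.05 after the length correction and without libraries 15 and 24.

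Of the 7 early-life liver genes in the table, 4 rose with Mki67 by limma in the fit over the whole table, where 5.25% of all genes were called higher. These were H19 (1.38 ± 0.27), Igf2bp3 (0.60 ± 0.12), an RNA-binding protein, Scd2 (0.46 ± 0.07), a desaturase, and Cd24a (0.24 ± 0.08). H19 was highest in library 24 and Scd2 in library 15, while Igf2bp3 and Cd24a were highest in other libraries. These slopes are over all 50 libraries. Afp, the fetal albumin homolog, did not pass.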
